A study of Mus musculus with 22 samples.

Results

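Maturation of the brain between embryonic day 15 (E15) and postnatal day 1 (P1) was followed in mice without Agtr2 by their label. Agtr2 is X-linked and encodes a receptor for the hormone angiotensin II, called type 2. The members are the 12 knockout animals of the series, chosen by genotype and age from 22 animals, with 8 at E15 and 4 at P1. Each was measured as the knockout channel of the 22 arrays of the series, 14 at E15 and 8 at P1, and 24246 genes or unnamed probes were tested. Each array of this dual-colour Agilent platform paired 1 knockout with 1 control animal, with the dyes Cy3 and Cy5, and the series holds 6 control animals at E15 and 4 at P1. The RNA was total RNA from frozen slices of whole brain, per the labels, and replicates are labelled as biological. The knockout allele, strain, sex, litters and rearing are not given in the sources used here. No treatment is named for any group.

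In mouse brain, E15 lies within the period in which radial glia and intermediate progenitors divide and produce neurons. By birth most cortical neurons have been made, axons are growing, the first synapses form and the production of glia begins. Expression of cell cycle genes therefore falls over this period in whole brain, and expression of synaptic and glial genes rises. The Agtr2 receptor is known for its abundance in fetal tissues, including developing brain.

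Levels are given in normalized units, which are the normalized intensity of a spot returned from the log2 scale. An offset of 50 was added to each intensity beforehand, so dim spots stand above 0 and folds of dim genes are reduced. With an offset of 10, at least 2-fold rises and falls numbered 429 and 957. A gene near this floor that was not called may still have changed. A change is the log2 of P1 over E15 with its standard error (SE), from 8 E15 and 4 P1 replicates unless stated. A change was called when limma's moderated test gave a Benjamini-Hochberg adjusted p under 0.05 over the features tested. Only in that case are the words rose and fell used. Because each array is scaled to the others, a change is relative to the total RNA of the sample, and in whole brain fewer cells of a type cannot be told apart from less RNA per cell.

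The Agtr2 probe did not separate the genotypes. In knockout channels it gave 78.9, 82.4, 66.1 and 79.0 units in P1 replicates 1 to 4, and 74.7, 98.3 and 136 units as the lowest, median and highest at E15. In control animals it gave 71.3 to 568 units at E15 (median 93.5) and 67.2 to 75.4 at P1. The 568 units belonged to 1 control animal. The log2 of knockout over control was -0.40 ± 0.93 (SD, n = 8) at E15 and 0.11 ± 0.19 (SD, n = 4) at P1. Whether the probe lies in the deleted part of the gene is not known here, so it does not check the labels. Agtr2 itself was not called between the ages in knockout brain, at -0.35 (SE 0.15, adjusted p = 0.113).

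The ages differ in more than age. The E15 arrays were scanned on 3 days and the P1 arrays on 1 other day, with another version of the scanner software, so age and scan cannot be told apart. E15 replicates 1 to 4 share 1 scan day and replicates 5 to 8 the other days. The first principal component (38.6% of the variance) placed E15 replicates 1 to 4 between -36.3 and -32.7, E15 replicates 5 to 8 between -15.3 and 2.00, and the P1 replicates between 35.7 and 40.7. Median raw brightness of the knockout channel was 68.8 to 158 on E15 arrays, where background was 34 to 45, and 58.9 to 161 on P1 arrays, where background was 33 to 41. Between 68.4% and 92.9% of probes at E15 and between 62.1% and 95.1% at P1 lay well above background. Correlations between replicates of an age ran from 0.909 to 0.983, and no pair of replicates held the same values. None of the 5 sex-linked genes tested was called between the ages.

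Brain region genes showed that the labelled whole brains did not hold the same regions. Dlx1, a gene of inhibitory neuron precursors of the forebrain, gave 353, 92.8, 342 and 64.8 units in P1 replicates 1 to 4. At E15 it gave 242, 491, 468, 122, 331, 426, 341 and 122 units in replicates 1 to 8. E15 replicates 4 and 8 and P1 replicates 2 and 4 thus lay below the other 8 replicates. Tbr1, a transcription factor of cortical projection neurons, gave 217, 86.5, 200 and 66.1 units in the P1 replicates, and 67.8 and 81.4 units in E15 replicates 4 and 8 against 116 to 198 in the other E15 replicates. Hoxb5, a gene of the caudal hindbrain and spinal cord, went the other way. It gave 56.5, 507, 74.2 and 1066 units in P1 replicates 1 to 4, and 365, 429 and 725 units in E15 replicates 4, 5 and 8 against 64.8 to 126 in the other E15 replicates. Tubb3, a tubulin of neurons, was bright in each replicate and held 3834 to 7284 units in E15 replicates and 5872 to 7899 in P1 replicates. Results below are therefore also given for the 6 E15 replicates (1, 2, 3, 5, 6 and 7) and the 2 P1 replicates (1 and 3) with higher forebrain genes, called the forebrain-rich replicates. That set was chosen after seeing the data. With only 2 P1 replicates fewer changes can be called, so a call lost there does not by itself mean a smaller change.

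Tissue from around the brain also varied. E15 replicate 8 held high levels of connective tissue and muscle genes: Col1a1, the main collagen of bone and meninges, gave 17742 units there against 541 to 1510 in the other E15 replicates. Over the list of 21 meningeal and fibroblast genes tested, the median level of E15 replicate 8 was 1.85 log2 units above the E15 mean, where the other E15 replicates ran from -0.43 to 0.17. Over 15 skeletal muscle genes it was 1.71, with E15 replicates 3 and 4 at 0.46 and 0.52.

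**Figure D1:**
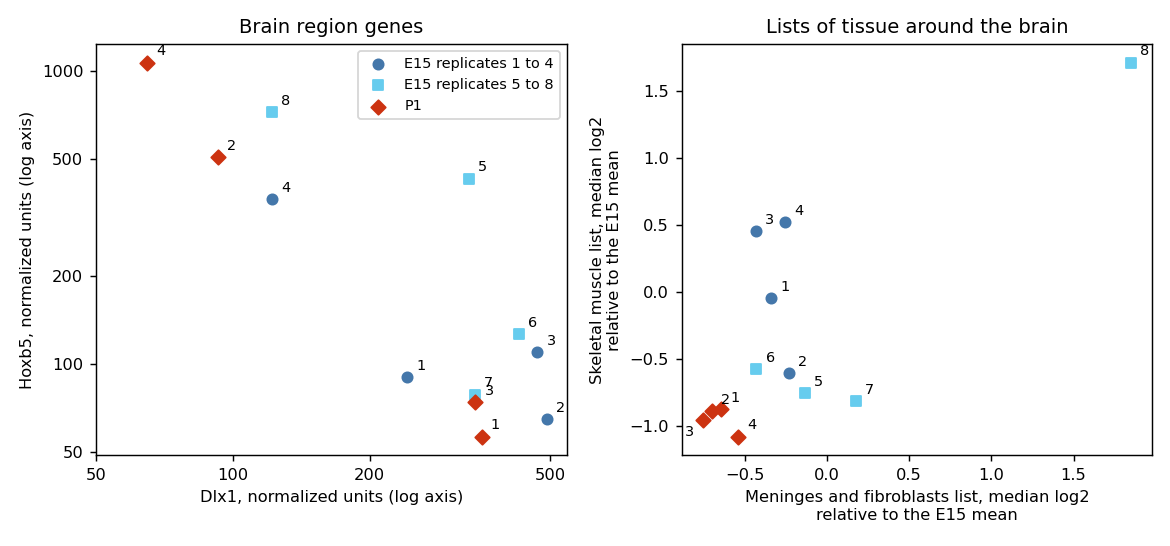
Region and surrounding-tissue genes in the 12 knockout replicates, each labelled with its number. On the left, Dlx1 (x axis) and Hoxb5 (y axis) are in normalized units on log axes; on the right, the median log2 level of the meninges and fibroblasts list (x axis) and of the skeletal muscle list (y axis) is relative to the E15 mean of each gene. P1 replicates 4 (64.8 units) and 2 (92.8 units) and E15 replicates 4 and 8 (122 units each) stand at the low end of Dlx1, and E15 replicate 8 stands alone at 1.85 and 1.71 on the right.

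Of the 24246 features, 1654 rose between E15 and P1 (6.82%) and 3691 fell (15.2%), so 69.1% of the called features were lower at P1. With loess normalization alone and channels centred on their median, the split was 1085 to 4681, or 81.2% lower. At least 2-fold rises numbered 139 (0.573%) and at least 2-fold falls 400 (1.65%). The median change of all features was -0.09. All P1 replicates lay above each E15 replicate in 4.55% of features and below each in 9.7%. Leaving out P1 replicate 2, 3 or 4 reduced the falls to 2376, 2256 and 2360. With scan day as a random block, 872 features rose and 1612 fell, and each of these 2484 was also called in the same direction without the block. The block groups replicates into scan sets within an age, with all P1 replicates in 1 set. It therefore leaves the changes nearly as they were and mainly widens their errors. The shared direction follows from that and does not separate scan from age. In the forebrain-rich replicates 756 rose and 1146 fell, and 1761 of these 1902 were called in the same direction in all 12 replicates. Called counts in the lists below, in the main setting, stand beside the shares of all features, 6.82% up and 15.2% down. List counts with the scan day block stand beside 872 rises and 1612 falls of 24246 features. Those in the forebrain-rich replicates stand beside 756 rises and 1146 falls, so the shares of the main setting do not apply to them. Those of monoamine, microglial, meningeal, choroid plexus, cholesterol, ribosomal and hormone response genes were near or below the shares of the main setting. Those of skeletal muscle, forebrain, hindbrain and cord, Hedgehog and BMP, chaperone, immediate early and oxidative phosphorylation genes exceeded these shares by few genes, if at all.

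**Figure D2:**
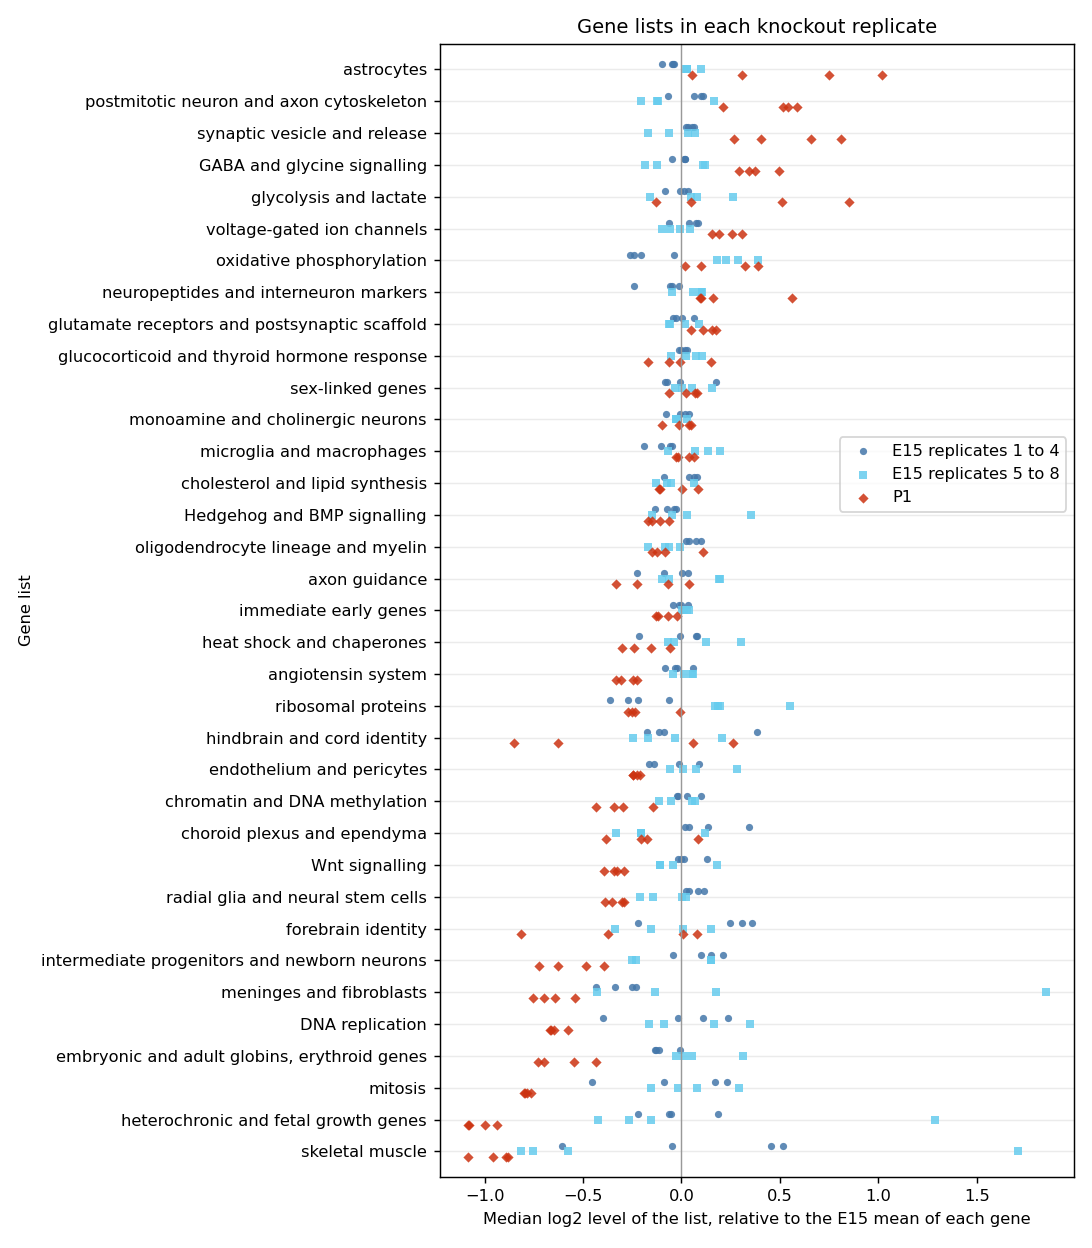
Median log2 level of each of the 35 gene lists (y axis) in each knockout replicate, relative to the E15 mean of each gene (x axis). Points are single replicates: circles are E15 replicates 1 to 4, squares E15 replicates 5 to 8 and diamonds P1. The P1 replicates lie between -0.80 and -0.76 for mitosis, below each E15 replicate, and between 0.27 and 0.81 for synaptic vesicle genes, above each E15 replicate.

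Most genes of cell division fell. Of 28 mitosis genes tested, 23 fell and 1 rose, with a median change of -0.80 against -0.09 over all features. Of 25 DNA replication genes, 17 fell and none rose, with a median of -0.67. The median mitosis level of the P1 replicates lay between -0.80 and -0.76 relative to the E15 mean, and that of the E15 replicates between -0.46 and 0.29. Cdc20, the activator of the anaphase-promoting complex, gave 240, 248, 220 and 212 units in P1 replicates 1 to 4, and 441, 682 and 893 units as the lowest, median and highest at E15. The ages did not overlap, and Cdc20 fell by 1.54 (SE 0.16, adjusted p = 0.000156). Mki67, the proliferation marker Ki-67, gave 270, 301, 239 and 336 units at P1 and 348, 658 and 1251 at E15. It fell by 1.23 (SE 0.28, adjusted p = 0.00901), again without overlap, and its probes ranged from -1.23 to -0.52. Ect2, which directs cytokinesis, lay between 91.0 and 97.3 units at P1 and between 143 and 438 at E15 (-1.20, SE 0.23, adjusted p = 0.00383), with another probe at -0.23. The centromeric histone Cenpa changed by -1.20 (SE 0.12, adjusted p = 0.000129). Nusap1, a spindle protein, was the exception: it gave 113, 109, 125 and 91.0 units at P1 against 69.9 to 77.1 at E15 and rose by 0.57 (SE 0.08, adjusted p = 0.000592). Top2a, a topoisomerase of dividing cells, changed by -0.85 (adjusted p = 0.0274), a call lost without P1 replicate 1, 2 or 4.

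Among replication genes, the helicase subunits led. Mcm7 gave 359, 405, 276 and 329 units at P1 and 661, 879 and 1274 at E15, and fell by 1.44 (SE 0.18, adjusted p = 0.00044). Mcm3 fell by 1.39 (SE 0.24, adjusted p = 0.00239) and Mcm2 by 1.38 (SE 0.26, adjusted p = 0.00332), and neither overlapped between the ages. With scan day as a random block 13 mitosis and 9 replication genes fell, and in the forebrain-rich replicates 12 and 10. Without P1 replicate 2 or 4, 11 replication genes fell.

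Promoters of some mitosis genes are shown because 23 of the 28 genes fell and promoter sequence is independent of the measurements. A promoter is here the 300 bases from 250 before to 50 after a transcription start in RefSeq's annotation of GRCm38.p6, and 24 of the 28 mitosis genes had an entry. Capitals mark the cell cycle homology region (CHR), TTTGAA, and the CCAAT box, CCAAT, which were searched on both strands and do not overlap each other in sequence. Cdc20, Mki67 and Ect2 were picked from the genes of large fall because the same promoter holds both. They are therefore not a sample of the genes that fell. Cdc20 lies at chr4:118437294-118437593, Mki67 at chr7:135716330-135716629 and Ect2 at chr3:27153829-27154128, each on the minus strand and printed 5′ to 3′.
Cdc20: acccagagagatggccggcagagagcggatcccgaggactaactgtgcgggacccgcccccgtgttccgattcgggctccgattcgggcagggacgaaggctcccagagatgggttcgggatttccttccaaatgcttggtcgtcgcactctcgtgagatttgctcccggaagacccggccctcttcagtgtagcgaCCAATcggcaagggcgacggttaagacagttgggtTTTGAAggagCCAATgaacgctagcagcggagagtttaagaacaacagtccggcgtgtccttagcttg
Mki67: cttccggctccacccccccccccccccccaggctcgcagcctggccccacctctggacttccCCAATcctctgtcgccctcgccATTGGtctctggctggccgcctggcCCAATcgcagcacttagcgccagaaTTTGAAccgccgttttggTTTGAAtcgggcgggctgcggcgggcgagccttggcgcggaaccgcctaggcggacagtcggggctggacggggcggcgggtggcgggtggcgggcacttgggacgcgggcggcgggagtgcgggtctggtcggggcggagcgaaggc
Ect2: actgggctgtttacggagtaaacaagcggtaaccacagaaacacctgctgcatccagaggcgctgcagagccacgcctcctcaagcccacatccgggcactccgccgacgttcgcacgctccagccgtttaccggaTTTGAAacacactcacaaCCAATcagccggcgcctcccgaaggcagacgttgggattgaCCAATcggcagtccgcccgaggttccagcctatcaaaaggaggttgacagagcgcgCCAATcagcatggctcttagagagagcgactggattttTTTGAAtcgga

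A gene was counted when any of its promoter entries held the letters. The CHR letters were found for 18 of the 24 mitosis genes and for 20.2% of 27025 genes. The CCAAT letters were found for 20 of the 24 (83.3%) and for 41.1%. Both stood in the same promoter for 17 mitosis genes (70.8%) against 8.0% of all genes. Of 23 replication genes with an entry, 13.0% held the CHR letters and 21.7% the E2F letters GGCGGGAA. The E2F letters were found for 2.5% of all genes and for 0 of the 24 mitosis genes. Among 20 synaptic vesicle genes with an entry, from a list with 12 rises and no fall, 15.0% held the CHR letters, 25.0% the CCAAT letters and 5.0% both. A match is a description of the letters and no test was made.

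Radial glia are the neural stem cells of the embryonic brain. Of 18 of their genes tested, 5 fell and 1 rose, with a median of -0.35, and in the forebrain-rich replicates 5 fell with the same median. Nes, which encodes the intermediate filament nestin, gave 401, 371, 332 and 380 units at P1 and 616, 908 and 1154 at E15. It fell by 1.20 without overlap (SE 0.15, adjusted p = 0.000496). Dll1, a ligand of Notch signalling, gave 219, 163, 168 and 203 units at P1 against 225 to 363 at E15 and fell by 0.70 (SE 0.13, adjusted p = 0.00301). Id4, an inhibitor of differentiation, fell by 1.16 (SE 0.26, adjusted p = 0.00855), and Prom1, a surface protein of stem cells, fell by 0.55 (SE 0.10, adjusted p = 0.0037). In the forebrain-rich replicates Id4 and Prom1 were not called (-0.90 and -0.56). Stem cell regulators were not called in either direction: Sox2 changed by 0.33 (adjusted p = 0.182) and Pax6 by -0.36 (adjusted p = 0.195).

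Genes of intermediate progenitors and newborn neurons had a median of -0.54 over 20 genes, of which 9 fell and none rose. Nhlh1, a transcription factor of newly made neurons, gave 97.7, 110, 87.4 and 98.2 units at P1 and 167, 205 and 248 at E15. It fell by 1.05 (SE 0.11, adjusted p = 0.000215) and was lower in each P1 replicate than in any E15 replicate. Sox11, a factor of immature neurons, gave 2935, 1453, 2971 and 888 units at P1 and 3147, 4733 and 14639 at E15 (-1.54, adjusted p = 0.0198), with the lowest values in the P1 replicates that lacked forebrain genes. Its call was lost without P1 replicate 2 or 4, and in the forebrain-rich replicates its change was -0.92 and not called. Eomes, the marker of cortical intermediate progenitors, changed by -0.35 (adjusted p = 0.176), and Neurod1 by 0.13 (adjusted p = 0.643). Without P1 replicates 2, 3 and 4, each in turn, the count of falls was 3, 5 and 5, and in the forebrain-rich replicates it was 5.

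Genes known for fetal growth and embryonic timing had the lowest median of the 35 lists apart from skeletal muscle. Of 14 tested, 9 fell and none rose, with a median of -0.99. Mest, an imprinted gene of embryonic tissue, gave 553, 252, 367 and 267 units at P1 and 1352, 1519 and 7150 at E15. It fell by 2.54 (SE 0.41, adjusted p = 0.00152), a 5.83-fold lower level, and by 1.90 in the forebrain-rich replicates, where it was also called. The 7150 units belong to E15 replicate 8, the replicate high in connective tissue, where the median of this list stood at 1.29 above the E15 mean. Plagl1, an imprinted zinc finger gene, fell by 1.54 (SE 0.34, 7 E15 replicates, adjusted p = 0.00862), with its probes between -1.54 and -0.23. Igf2bp1, an RNA-binding protein of fetal tissue, fell by 1.03 (SE 0.21, adjusted p = 0.0049) but was not called in the forebrain-rich replicates (-0.84). Lin28b, a heterochronic regulator, gave 82.1 to 103 units at P1 and 82.3 to 102 at E15 and did not change detectably (-0.02, adjusted p = 0.884). Leaving out P1 replicate 2 reduced the 9 falls to 5, and 5 fell in the forebrain-rich replicates.

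Globins report on the red blood cells left in the tissue. Of 12 globin and erythroid genes tested, 7 fell and none rose (median -0.68), and 4 fell in the forebrain-rich replicates. Hbb-y, the embryonic epsilon-type beta globin, gave 124, 132, 123 and 109 units at P1 and 406, 521 and 1165 at E15. It fell by 2.23 (SE 0.23, adjusted p = 0.000166), a 4.70-fold lower level. The adult genes also fell: Hba-a1 gave 1894, 2456, 1812 and 5413 units at P1 and 3950, 6707 and 14118 at E15 (-1.42, SE 0.35, adjusted p = 0.0141). Those ranges overlap through P1 replicate 4, and the call was lost without P1 replicate 3. Klf1, the erythroid transcription factor, was not called, at 65.1 to 76.7 units at P1 and 62.6 to 83.2 at E15.

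Genes of maturing neurons rose in part. In the list of postmitotic neuron and axon cytoskeleton genes 9 of 22 rose and 1 fell, with a median of 0.51. With loess alone 4 rose and 4 fell (median 0.18), and with the scanner's processed signals 7 rose and 3 fell (median 0.44), so the balance of rises and falls depended on scaling. Among the forebrain-rich replicates 3 rose and the median was 0.34. Thy1, a surface glycoprotein of maturing neurons, gave 703, 1486, 734 and 1996 units at P1 and 126, 184 and 245 at E15. It rose by 2.63 (SE 0.29, adjusted p = 0.000229), a 6.18-fold higher level, with another probe at 0.40. Its rise in the forebrain-rich replicates was 1.89, still called. Rbfox3, the neuronal nuclear antigen NeuN, gave 198, 253, 310 and 413 units against 118 to 184 at E15 and rose by 1.03 (SE 0.19, adjusted p = 0.00313). Early neuronal genes did not pass the test: Dcx, of migrating neurons, changed by 0.31 (adjusted p = 0.284) and Tubb3 by 0.29 (adjusted p = 0.298), and both were below 0 with loess alone (-0.20 and -0.48).

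Synaptic vesicle and release genes rose in 12 of 25 cases and fell in none, with a median of 0.48. With loess alone 6 rose and 1 fell (median 0.26), and with processed signals 7 rose (median 0.48). Syn2, a protein that tethers vesicles, gave 1113, 1527, 1223 and 1380 units at P1 and 372, 552 and 734 at E15. It rose by 1.22 (SE 0.16, adjusted p = 0.000592), and its probes ranged from 0.04 to 1.22. Syp, the vesicle membrane protein synaptophysin, gave 183, 353, 414 and 558 units at P1 and at most 173 at E15 (1.24, SE 0.22, adjusted p = 0.00291). Rims1, a scaffold of the release site, rose by 0.93 (SE 0.14, adjusted p = 0.000999). Among vesicular glutamate transporters, Slc17a6 changed by 0.39 and Slc17a7 by -0.22, and neither was called. With scan day as a random block 5 of the 25 rose, in the forebrain-rich replicates 2, and without P1 replicate 4 the count was 7.

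Of 28 glutamate receptor and postsynaptic genes tested, 9 rose and 1 fell, with a median of 0.09, which was 0.03 with loess alone and 0.16 with processed signals, and in the forebrain-rich replicates 9 rose. Gria2, the AMPA receptor subunit that blocks calcium entry, gave 2656, 1929, 2008 and 1643 units at P1 and 416, 723 and 1083 at E15, and rose by 1.58 (SE 0.25, adjusted p = 0.0015). Grm5, a metabotropic receptor, gave 584, 591, 602 and 654 units at P1 against 141 to 282 at E15 and rose by 1.71 (SE 0.19, adjusted p = 0.000235), with another probe at -0.02. Nrgn, a calmodulin-binding protein of forebrain dendrites, gave 1454, 759, 1031 and 365 units at P1 and 171, 201 and 316 at E15. It rose by 1.94 (SE 0.29, adjusted p = 0.000991), and the order of its P1 values followed that of Dlx1 across the 4 replicates. Nrgn rose by 2.48 in the forebrain-rich replicates. The NMDA receptor subunit Grin2b changed by 0.21 (adjusted p = 0.0986), and Grin2a was too dim to test.

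Inhibitory signalling genes had a median of 0.38 over 24 genes, with 8 rises and 1 fall. With loess alone and with processed signals 4 rose, with medians of 0.23 and 0.47. Gabrg1, a subunit of the GABA-A receptor, gave 301, 314, 349 and 350 units at P1 and 119, 182 and 223 at E15 (0.91, SE 0.15, adjusted p = 0.00216). Gabrb1, another subunit, rose by 0.67 (SE 0.12, adjusted p = 0.00294). Glrb, the glycine receptor beta subunit, rose by 0.73 (SE 0.13, adjusted p = 0.00308) but was not called in the forebrain-rich replicates (0.50). Slc12a2, the chloride importer of immature neurons, was not called (-0.24, adjusted p = 0.322), and its counterpart Slc12a5 was left out for flagged spots. Without P1 replicate 3 or 4 the number of rises fell to 4, and 2 rose in the forebrain-rich replicates.

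Ion channel genes of electrical excitability had a median of 0.25 over 24 genes, with 6 rises and 1 fall, and with processed signals the median was 0.54. Scn2a, a sodium channel of early axons, gave 428, 711, 383 and 557 units at P1 and 151, 227 and 419 at E15 (1.11, SE 0.27, adjusted p = 0.0127). Cacna1b, the N-type calcium channel of presynaptic terminals, rose by 0.61 (SE 0.14, adjusted p = 0.0104). None of the 24 genes was called with scan day as a random block or in the forebrain-rich replicates, and 3 and 2 rose without P1 replicate 2 or 4. Scn1a changed by 0.49 (adjusted p = 0.067) and Scn3a, a fetal sodium channel, by -0.07 (adjusted p = 0.784).

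Among neuropeptides and interneuron genes, 5 of 21 rose and none fell (median 0.20, and 0.34, 0.35 and 0.31 without E15 replicate 6, P1 replicate 1 and P1 replicate 4). With loess alone 3 rose and 1 fell, and with processed signals 8 rose. Cck, the peptide cholecystokinin, gave 1308, 528, 533 and 464 units at P1 against 130 to 376 at E15 and rose by 1.34 (SE 0.31, adjusted p = 0.00949), with its value highest in P1 replicate 1 and another probe at -0.09. Calb1, a calcium-binding protein, rose by 0.82 (SE 0.18, adjusted p = 0.00756). Sst, the peptide somatostatin, gave 1272, 2172, 1719 and 2924 units at P1 and 596, 1006 and 1257 at E15 (1.07, SE 0.25, adjusted p = 0.0095). Cck, Calb1 and Sst were not called in the forebrain-rich replicates (1.70, 0.54 and 0.63), where 3 of the list rose and 1 fell. Of 16 monoamine and cholinergic genes, 1 rose and 1 fell (median 0.06), the transporter Slc18a3 and the dopamine neuron factor Pitx3, and both calls were lost without P1 replicate 2, 3 or 4. Without P1 replicate 1, 3 rose. Of all features 6.82% rose and 15.2% fell.

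**Figure D3:**
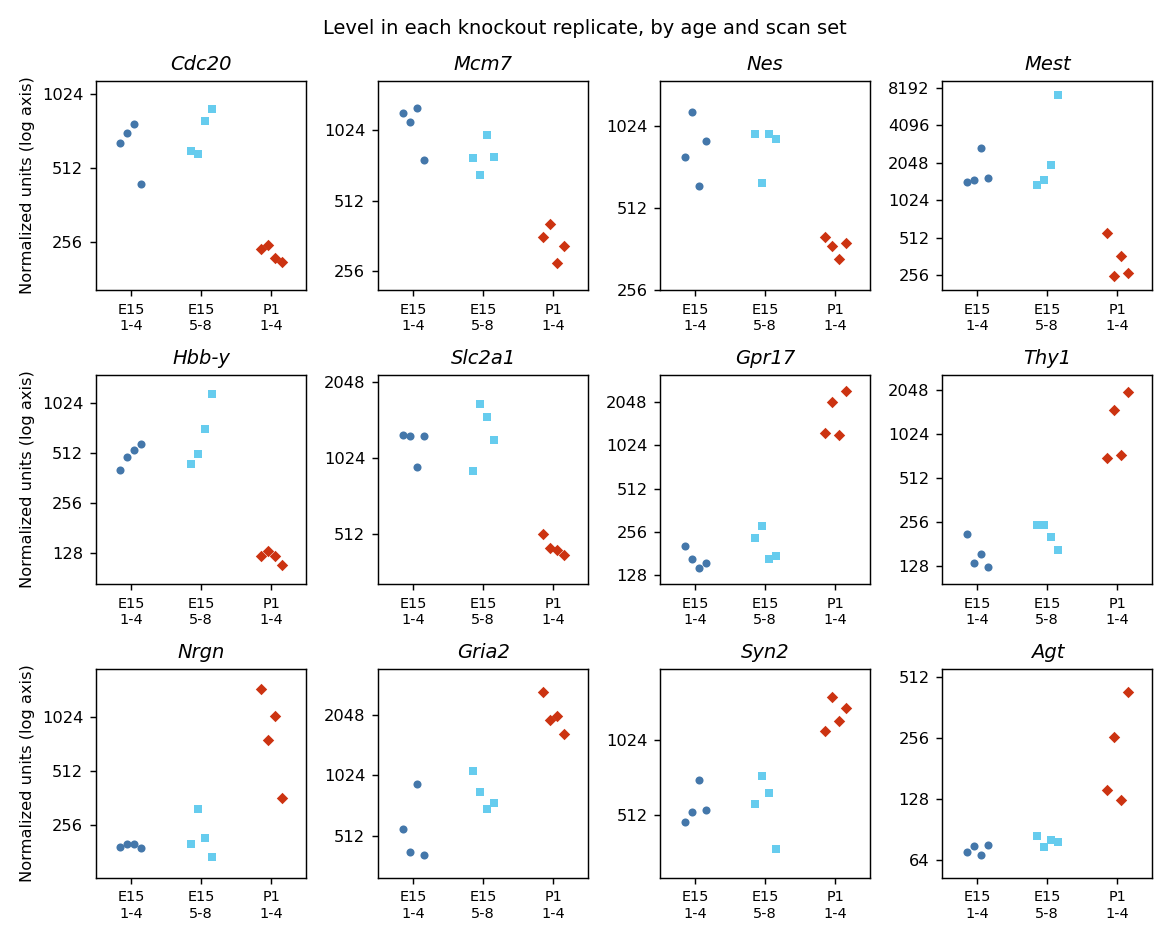
Level of 12 genes in each knockout replicate, in normalized units on a log axis, with E15 replicates 1 to 4, E15 replicates 5 to 8 and P1 replicates 1 to 4 in separate columns. In each of the 12 panels the P1 points do not overlap the E15 points. Cdc20 lies at 212 to 248 units at P1 and 441 to 893 at E15, and Gria2 at 1643 to 2656 and 416 to 1083. Gpr17, Thy1, Nrgn, Mest and Hbb-y are among the largest changes, which were named only if the ages did not overlap. Over all features, P1 lay above each E15 replicate in 4.55% and below in 9.7%.

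Astrocyte genes rose in 8 of 24 cases and fell in none, with a median of 0.68. Their level differed widely among the P1 replicates: the list median was 0.05, 0.75, 0.31 and 1.02 above the E15 mean in P1 replicates 1 to 4, so the replicates low in forebrain genes were the high ones. In the forebrain-rich replicates 2 rose and the median was 0.21, and without P1 replicate 4 the median was 0.45. With loess alone 6 rose and the median was 0.33. Fgfr3, a growth factor receptor of the astrocyte lineage, gave 975, 1151, 1207 and 813 units at P1 and 154, 205 and 279 at E15. It rose by 2.31 (SE 0.16, adjusted p = 1.25e-05), with its other probes down to -0.07, and was not called when probes with 1 or more flagged P1 arrays were left out. Mt2, a metallothionein, gave 933, 840, 708 and 842 units at P1 against 141 to 423 at E15 and rose by 1.46 (SE 0.23, adjusted p = 0.0015). Fgfr3 and Mt2 did not follow the order of the list among the P1 replicates. Slc1a3, a glutamate transporter, was highest in P1 replicates 4 and 2, as the list was, at 1017, 1655, 957 and 2033 units in replicates 1 to 4 (0.81, adjusted p = 0.0124, and 0.38, not called, in the forebrain-rich replicates). Gfap, the filament of mature astrocytes, gave 61.0 to 87.3 units at P1 and 69.2 to 85.2 at E15 and was not called, and Aqp4, the water channel, was not called with its main probe (0.13), although another probe stood at 1.78.

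Of 21 oligodendrocyte lineage genes 4 rose and 1 fell, with a median of -0.10. Without P1 replicate 2, 2 rose, and in the forebrain-rich replicates 3. Gpr17, a receptor of differentiating oligodendrocyte precursors, gave 1239, 2043, 1216 and 2429 units at P1 and 145, 171 and 280 at E15. It had the largest rise of any named gene with values in all 12 replicates, 3.15 (SE 0.22, adjusted p = 1.25e-05), an 8.86-fold higher level. Its other probe gave -0.23, and that probe represents the gene when probes with 1 or more flagged P1 arrays are left out. Pdgfra, of earlier precursors, changed by 0.23 (adjusted p = 0.633), and Mbp, a myelin protein, by -0.23 (adjusted p = 0.301), with another probe at 1.16.

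Of 18 microglial and macrophage genes 1 rose and none fell, with a median of 0.05, and 3 rose without E15 replicate 5 or 8. The rise was Tyrobp, an adaptor of microglial receptors, at 226, 182, 241 and 188 units at P1 and 84.0, 112 and 181 at E15 (0.77, adjusted p = 0.0361). That call was lost without any of E15 replicates 1 to 4 or P1 replicates 1 to 4. Over all features 6.82% rose and 15.2% fell.

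Of 21 endothelial and pericyte genes 8 fell and 1 rose, with a median of -0.20. Without P1 replicate 3, 5 fell, without E15 replicate 8, 3 rose, and in the forebrain-rich replicates 3 fell and 2 rose. Slc2a1, the glucose transporter of the barrier, gave 515, 454, 445 and 425 units at P1 and 915, 1252 and 1677 at E15, and fell by 1.42 (SE 0.15, adjusted p = 0.000172). Pdgfrb, the pericyte growth factor receptor, fell by 1.05 (SE 0.19, adjusted p = 0.00267), and Kcnj8, a pericyte potassium channel, by 0.81 (SE 0.15, adjusted p = 0.00338). The endothelial cadherin Cdh5 fell by 0.97 (adjusted p = 0.00943) and was not called in the forebrain-rich replicates (-0.89). Slco1c1, which carries thyroid hormone and organic anions across the barrier, gave 243, 194, 194 and 199 units at P1 against 117 to 152 at E15 and rose by 0.60 (SE 0.08, adjusted p = 0.000795).

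Genes of tissue around the brain had medians below 0 that moved with the E15 replicates used. The meningeal list had a median of -0.62 with 3 falls and 1 rise of 21, where 15.2% of all features fell and 6.82% rose. Without E15 replicate 8 its median was -0.46 with 10 falls, and with processed signals -1.23 with 7 falls. Without E15 replicate 7 or P1 replicate 1, 3 or 4, 1 fell, and 1 fell in the forebrain-rich replicates. Its rise was Ptgds, the prostaglandin D synthase of meninges and choroid plexus, at 1753, 1924, 1702 and 3583 units at P1 and 222, 413 and 1280 at E15 (2.21, SE 0.39, adjusted p = 0.00264). Ptgds changed by 1.75 and was not called in the forebrain-rich replicates. Col1a1 changed by -1.58 and was not called (adjusted p = 0.147). The skeletal muscle list had 3 falls of 15, close to the share of all features. Its median was -1.01, and -0.63 with 4 falls without E15 replicate 8. With processed signals 7 fell. Against E15 replicates 1, 2, 5, 6 and 7 only, a set chosen after seeing the data, it was -0.32, with 5 falls, and in the forebrain-rich replicates -0.38, with 1 fall. Actc1, the cardiac and embryonic muscle actin, gave 155, 219, 235 and 239 units at P1 and 426, 1407 and 3077 at E15 (-2.48, SE 0.51, adjusted p = 0.00582; -2.36, not called, in the forebrain-rich replicates). At E15, Actc1 gave 1118 to 3077 units in replicates 1 to 4 and 426 to 1696 in replicates 5 to 8. The choroid plexus list had 2 falls and 1 rise of 14, near the shares of all features. Its median was -0.28, and -0.42, -0.51 and -0.08 without E15 replicate 6, P1 replicate 1 or P1 replicate 2. The thyroxine carrier Ttr gave 946, 64.3, 385 and 545 units in the P1 replicates.

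Regional identity lists varied with the replicates left out, and their called counts were near the shares of all features, 15.2% down and 6.82% up. The forebrain-rich replicates were chosen by Dlx1 and Tbr1, members of the forebrain list. Hoxb5, which went the other way, is in the hindbrain and cord list. The medians of both lists in those replicates therefore follow in part from the choice. The forebrain list had a median of -0.44 with 3 falls of 17, -0.11 without P1 replicate 4 and -0.10 in the forebrain-rich replicates. Emx1, a cortical transcription factor, gave 104, 131, 111 and 92.4 units at P1 against 142 to 192 at E15 and fell by 0.57 (SE 0.10, adjusted p = 0.00326), by 0.63 in the forebrain-rich replicates. The hindbrain and cord list had a median of -0.20 with 4 falls and 1 rise of 18, and -0.55 in the forebrain-rich replicates. Without P1 replicate 1, 3 or 4 its median was -0.09, -0.11 and -0.39. The 4 falls became 1 without E15 replicate 2, 3 or 4 or P1 replicate 1 or 3, and 2 without E15 replicate 1, 5 or 7 or P1 replicate 2. Hoxa3 fell by 0.53 (SE 0.08, adjusted p = 0.00092), and Atoh1, the factor of cerebellar granule cell precursors, gave 105, 109, 130 and 108 units at P1 against 71.4 to 87.5 at E15 and rose by 0.50 (SE 0.08, adjusted p = 0.00146). Hoxc5 separated the scan sets of E15, at 861 to 1090 units in replicates 1 to 4 and 181 to 274 in replicates 5 to 8, beside 146 to 213 at P1. Genes named elsewhere separated these sets too, among them Plxna1 (605 to 797 against 350 to 522 units) and Jund (3286 to 5313 against 2282 to 3019). Thoc7 did so in the other direction (300 to 517 against 600 to 841).

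Metabolic lists depended on scaling. Oxidative phosphorylation genes had a median of 0.22 (4 rises and 2 falls of 30), which was -0.29 with loess alone and -0.11 with the scanner's processed signals. Against E15 replicates 1 to 4 the median was 0.58, against replicates 5 to 8 it was -0.08, and without E15 replicate 2 it was 0.13. Without P1 replicate 1, 3 or 4, 2 rose, and in the forebrain-rich replicates none of the 30 was called. Glycolysis and lactate genes had a median of 0.34 (6 rises and 2 falls of 22), -0.26 with loess alone and -0.03 with processed signals. Without P1 replicate 1 the number of rises was 10, and without P1 replicate 2 or 4 it was 3. Ribosomal protein genes had a median of -0.19 (2 falls of 39), -0.87 with loess alone (12 falls), -0.74 with processed signals (10 falls), 0.06 against E15 replicates 1 to 4 and -0.50 against replicates 5 to 8, and -0.12 and -0.29 without E15 replicate 8 or P1 replicate 1. Pfkp, Slc2a3 and Slc16a1 were called with both of these scalings too. Pfkp, the platelet-type phosphofructokinase that brain also uses, gave 848, 924, 896 and 1395 units at P1 and 127, 268 and 377 at E15 (2.00, SE 0.28, adjusted p = 0.000737), with its probes between 0.28 and 2.00. Slc2a3, the glucose transporter of neurons, rose by 0.76 (SE 0.10, adjusted p = 0.000536), and Slc16a1, a carrier of lactate and ketone bodies, by 1.14 (SE 0.25, adjusted p = 0.00796). Other probes of Slc2a3 and Slc16a1 reached down to -0.11 and -0.12. Of 21 cholesterol and lipid genes 3 fell and 1 rose, with a median of -0.03 that was 0.01 without P1 replicate 2, and 1 fell without P1 replicate 1. With loess alone and with processed signals its median was -0.32 and -0.23, with 3 falls and no rise each time. Of all features 15.2% fell and 6.82% rose in the main setting. Fdps, an enzyme of the mevalonate pathway, changed by -0.57 (SE 0.14, adjusted p = 0.0125), and the desaturase Scd2 by 0.73 (SE 0.10, 7 E15 replicates, adjusted p = 0.000999), a call lost with loess alone and with processed signals.

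Of 19 Wnt genes 8 fell and 1 rose (median -0.34), and 3, 5 and 3 fell without P1 replicate 2, 3 or 4 and 2 in the forebrain-rich replicates. Fzd1, a Wnt receptor, gave 279, 309, 317 and 317 units at P1 and 500, 608 and 718 at E15, and fell by 0.98 (SE 0.09, adjusted p = 0.000129). Lef1, the nuclear effector, fell by 1.42 (SE 0.27, adjusted p = 0.00349; -1.02, not called, in the forebrain-rich replicates), and Nkd1, an inhibitor that Wnt signalling induces, fell by 0.90 (SE 0.17, adjusted p = 0.00369). Of 22 Hedgehog and BMP genes 5 fell and 1 rose (median -0.09), where 15.2% of all features fell and 6.82% rose. In that list 3 and 2 fell without P1 replicate 2 or 3, and 3 rose without E15 replicate 8. Of 27 chromatin genes 9 fell and 2 rose (median -0.24), and 5 fell without P1 replicate 2 and 2 in the forebrain-rich replicates. The chromatin median was -0.42 with loess alone and -0.45 with processed signals. Ezh2, the methyltransferase of Polycomb repression, gave 215, 159, 180 and 146 units at P1 and 313, 411 and 557 at E15 and fell by 1.25 (SE 0.14, adjusted p = 0.000293). Chd5, a neuronal chromatin remodeller, gave 840, 783, 697 and 602 units at P1 against 145 to 449 at E15 and rose by 1.40 (SE 0.25, adjusted p = 0.00266), with another probe at 0.01.

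Axon guidance genes moved both ways, with 7 falls and 3 rises of 25 and a median of -0.10, which was -0.06 and -0.04 without E15 replicate 8 or P1 replicate 4, -0.26 with loess alone and -0.22 with processed signals. Robo3, the receptor that lets commissural axons cross the midline, gave 149, 137, 125 and 119 units at P1 and 221, 235 and 360 at E15, and fell by 0.99 (SE 0.15, adjusted p = 0.00104). Plxna1, a semaphorin receptor, fell by 1.22 (SE 0.24, adjusted p = 0.00465), with another probe at 0.23. Epha5, an ephrin receptor of later axon targeting, gave 592, 429, 497 and 566 units at P1 against 184 to 375 at E15 and rose by 0.93 (SE 0.18, adjusted p = 0.00413; 0.94, not called, in the forebrain-rich replicates).

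Of 20 immediate early genes 4 fell and 2 rose (median -0.11), where 15.2% of all features fell and 6.82% rose. Without P1 replicate 2, 3 or 4, 2 immediate early genes fell. Jund fell by 1.25 (SE 0.19, adjusted p = 0.0011) and Btg2, an antiproliferative gene of neurogenic progenitors, by 0.82 (SE 0.14, adjusted p = 0.0023). Bdnf, the neurotrophin, gave 137, 130, 139 and 130 units at P1 against 73.5 to 114 at E15 and rose by 0.54 (SE 0.10, adjusted p = 0.00392), with another probe at -0.06. Of 16 chaperone genes 3 fell and 2 rose (median -0.15, and -0.09 without E15 replicate 8), with Hsph1 down by 0.92 (SE 0.13, adjusted p = 0.000695). With loess alone 5 chaperone genes fell and none rose (median -0.44), and with processed signals 5 fell and 1 rose (median -0.42). Of 17 glucocorticoid and thyroid hormone genes 2 fell and 1 rose, where 15.2% of all features fell and 6.82% rose. Their median was 0.08, and it was -0.11 with loess alone, 0.02 with processed signals and -0.12 without P1 replicate 1. Fkbp5, a chaperone that glucocorticoids induce, fell by 0.54 (SE 0.08, adjusted p = 0.000737).

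The angiotensin system, to which the targeted gene belongs, had 6 falls and 1 rise among 17 genes tested and a median of -0.18. The rise was Agt, the precursor of angiotensin peptides, which astrocytes make in brain. It gave 141, 260, 127 and 433 units at P1 and 67.8, 75.2 and 83.4 at E15, without overlap, and rose by 1.49 (SE 0.26, adjusted p = 0.00228). P1 replicates 2 and 4, low in forebrain genes and high in astrocyte genes, held its highest values, and in the forebrain-rich replicates the rise was 0.84, still called. Mtus1, whose product binds the Agtr2 receptor, gave 216, 172, 191 and 235 units at P1 against 257 to 549 at E15 and fell by 0.83 (SE 0.18, adjusted p = 0.00676), with its probes between -0.83 and 0.22. Agtr1a, the type 1 receptor, changed by -0.35 (adjusted p = 0.0526). The number of falls was 2 without E15 replicate 7, P1 replicate 3 or P1 replicate 4, and 3 without E15 replicate 4 or 5 or P1 replicate 1 or 2, and 2 in the forebrain-rich replicates.

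With scan day as a random block fewer genes were called, 872 higher and 1612 lower of 24246 features. List medians could hardly move, because the scan sets lie within an age. Among lists with falls, 3 of 20 intermediate progenitor, 5 of 14 fetal growth, 4 of 12 erythroid, 5 of 21 endothelial, 3 of 19 Wnt, 4 of 27 chromatin, 4 of 25 axon guidance and 2 of 17 angiotensin genes fell. Of Hedgehog and BMP, forebrain, and hindbrain and cord genes 1 each fell, and none of the meningeal genes. Among lists with rises, 4 of 22 postmitotic neuron, 4 of 24 GABA and glycine, 5 of 24 astrocyte and 2 of 21 oligodendrocyte lineage genes rose, and none of the microglial genes. Of metabolic genes 1 rose and 1 fell in oxidative phosphorylation, 3 and 1 in glycolysis, and 1 and 1 in cholesterol synthesis. With processed signals some medians were farther from 0: -1.24 for mitosis, -1.15 for replication, -0.59 for radial glia and -0.84 for intermediate progenitors. So were -1.42 for fetal growth, -0.98 for globins, -0.43 for endothelium and -0.66 for Wnt genes. The medians of astrocyte (0.50) and postmitotic neuron genes (0.44) were nearer 0 there. Those of oxidative phosphorylation (-0.11) and glycolysis (-0.03) changed sign.

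Outside the lists, further genes of large change other than Plppr4 were read from single probes or from probes that disagreed. Plppr4, a phosphatase-related protein of glutamatergic synapses, gave 1288, 1095, 1522 and 1118 units at P1 and 191, 294 and 379 at E15, and rose by 2.13 (SE 0.19, adjusted p = 0.0001), with its probes at 1.37 and 2.13. Cntn1, an axonal adhesion protein, gave 671, 1337, 803 and 2836 units at P1 against 237 to 470 at E15 and rose by 1.91 (SE 0.33, adjusted p = 0.00244; 1.32, still called, in the forebrain-rich replicates). Rasgef1a, a Ras exchange factor, rose by 1.99 (SE 0.19, adjusted p = 0.000129). Myo1e rose by 1.89 (SE 0.23, adjusted p = 0.00039), with other probes down to -0.10. Thoc7, of the mRNA export complex, rose by 2.09 (SE 0.24, adjusted p = 0.000284) but changed by -0.32 with loess alone and -0.14 with processed signals, and its other probe gave 0.06. Among the falls, Dusp4, a phosphatase of MAP kinases, gave 592, 510, 460 and 440 units at P1 and 1174, 1579 and 2866 at E15 (-1.83, SE 0.25, adjusted p = 0.000642). Nr2f2, the transcription factor COUP-TFII, changed by -1.87 (SE 0.31, adjusted p = 0.00208) with its other probes up to 0.02, and Mrps7, of the mitochondrial ribosome, by -1.90 (SE 0.31, adjusted p = 0.00159) with another probe at 0.08.

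The same change in control animals was measured in other animals on the same arrays, 6 at E15 and 4 at P1. There 7775 features were called, 2202 higher and 5573 lower, with a median change of -0.09. Of the 5345 features called in knockout brain, 5334 changed in the same direction in the controls, which share arrays, scan days and scanner software with the knockout channels. Whether the change differed was tested on the knockout over control ratio of each array, averaged per knockout replicate, with animals that share a control as a random block. No feature passed (0 of 24246, 0%), and the lowest adjusted p was 0.0903. At an unadjusted p under 0.05 there were 1083 features, 626 with the larger value in knockout and 457 with the smaller, where 5% of all features is 1212. For 96.8% of features the interval of the difference lay within 2-fold either way.

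Features of lowest p with a smaller value in knockout included Scn3b, a sodium channel subunit. Scn3b changed by 0.24 in knockout and 0.90 in control brain, a difference of -0.65 (adjusted p = 0.438), and Slc1a4, a neutral amino acid transporter, by 0.60 and 0.97, a difference of -0.36 (adjusted p = 0.265). Nexmif and Pcdha9 both had differences of -0.53. Bin3, Bri3, Trmt6, Ptpmt1 and Rptn stood at the other end, with differences of 0.35, 0.50, 0.43, 0.43 and 0.18.

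None of the neuronal genes passed the test of the difference. In the 5 lists of neuronal, vesicle, glutamate, GABA and channel genes, 94 of 120 different genes had a difference below 0 and 26 above, where 44.8% of all features were below 0. At an unadjusted p under 0.05 there were 17 below and 1 above. The median difference was -0.28 for postmitotic neuron genes (19 of 22 below 0), -0.15 for vesicle genes (20 of 25), -0.20 for GABA and glycine genes (18 of 24), -0.10 for glutamate receptor genes (20 of 28) and -0.09 for channel genes (19 of 24). Lists of other kinds also had most genes below 0: 16 of 18 hindbrain and cord genes (median -0.07), 16 of 21 cholesterol genes (-0.23) and 17 of 25 axon guidance genes (-0.06). For postmitotic neuron genes the median knockout over control ratio was -0.46, -0.19, -0.10 and 0.10 in P1 replicates 1 to 4 and ran from -0.13 to 0.48 at E15, so P1 replicate 1 was the lowest and P1 replicate 4 lay on the other side of 0. The forebrain list on the same P1 arrays gave 0.38, -0.35, 0.60 and -0.15, so knockout and control channels of an array differed in regional genes too. The part of these regional genes in the neuronal difference was not tested. Skeletal muscle genes lay the other way, with 13 of 15 above the control change and a median difference of 0.42, as did meningeal genes, with 18 of 21 and 0.18. The median muscle ratio of knockout over control lay between -0.03 and 0.01 on the P1 arrays, but at E15 it ran from -3.21 in replicate 4 and -1.18 in replicate 1 to 2.23 in replicate 8. The meningeal ratio likewise ran from -1.57 in E15 replicate 4 to 2.13 in E15 replicate 8, beside -0.27 to 0.28 at P1.

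**Figure D4:**
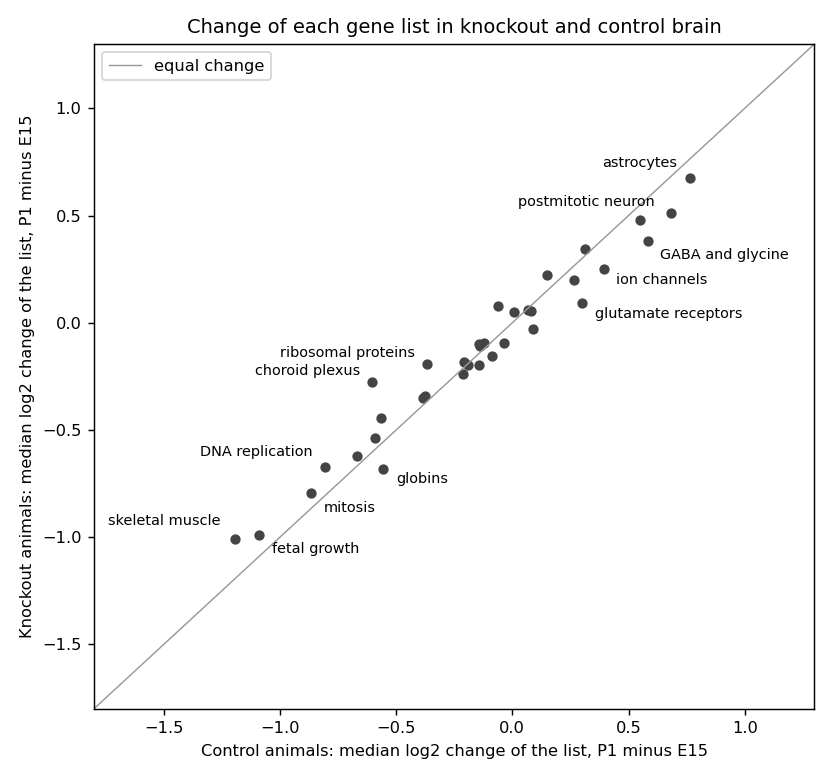
Median log2 change from E15 to P1 of each of the 35 gene lists in control animals (x axis) and in knockout animals (y axis), with the line of equal change. Points are lists: mitosis lies at -0.86 in control and -0.80 in knockout brain, postmitotic neuron genes at 0.68 and 0.51, and glutamate receptor genes at 0.30 and 0.09.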

How the data were processed

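The deposited scanner files hold, per the file headers, for each channel a mean spot intensity and a median intensity of the surrounding background, neither corrected nor normalized by the authors. They also hold processed intensity and its log10 ratio of Cy5 over Cy3, which the scanner software (Feature Extraction 8.1.1.1 at E15 and 8.5.1.1 at P1) had background-subtracted and dye-normalized, as those headers record. Deposited log10 ratios served as an alternative only.

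Mean signals were corrected with normexp (offset 50) and normalized by loess and Aquantile in limma 3.58.1 (R 4.3.3). Spots with an outlier flag were set to missing, and 3101 of 41174 probes with such flags on 2 or more P1 arrays were left out. Spots of a probe and both dye orientations of a replicate were averaged. The 2 E15 replicates with a single array were corrected by the mean dye effect of E15. A gene was represented by its brightest probe. Features well above background in at least 50% of the knockout channels of either age were kept and tested with lmFit and eBayes, and with 8 E15 and 4 P1 animals the number of arrays limits the precision. The difference from controls was tested on the ratio per replicate, with sets of replicates that share a control animal as a random block (correlation 0.0674). Only the test between the ages was also run on simulated replicate values. Normalization, filters, probe choice and the ratio test were not simulated.

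The members, the 35 gene lists and the tests were chosen with earlier results of these data known. Of 764 different genes listed, some in several lists, 708 were tested, 39 were left out for flags, 10 were too dim or had too few values and 7 had no probe of that name. The gene listed as Hbb-b1 was read under its present name Hbb-bt. Named genes were the 12 largest rises and falls without overlap, in each list the 4 called genes of largest change in its main direction and 2 in the other, genes fixed for their textbook role, and the 5 of lowest p in each direction of the difference. Hoxb5, Hoxc5, Dlx1, Tbr1, Klf1 and Slc17a6 fall outside this rule and were chosen after their values were seen. Some genes that the rule names are not reported here.

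Alternatives covered the background offset, the normalization, the filters, the flags, the dyes, the probe rule, the scan day, the replicate number and each replicate left out. The restrictions to some E15 or P1 replicates were chosen after seeing the data.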

Additional observations from a re-analysis of the deposited data

Results flagged for a closer look

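In 36 of 432 groups of 4 or 8 replicates examined, 29 of 362 for single genes and 7 of 70 for list medians, the highest or lowest replicate stood apart from the others by Dixon's criterion. Chance flags about 1 in 20 groups, and the groups share replicates. E15 replicate 8 accounted for 13 of them.

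In E15 replicate 8 the high values were Col1a1 at 17742 units, Serpinh1 (a collagen chaperone) at 12121, Cdkn1c at 11843, Mest at 7150, Pdgfra at 666, Foxc1 at 583, Pdgfrb at 534, Foxd1 at 503 and Pdk1 at 169. Pax6 was low there, at 140 units. Its list medians stood high for meninges and fibroblasts (1.85), fetal growth (1.29) and Hedgehog and BMP signalling (0.36), on the log2 scale relative to the E15 mean.

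In E15 replicate 3 Prom1 (167 units) and Hoxa3 (179) were high, and Bgn (89.5), Uqcrc2 (759), Dnajb1 (660) and the neuropeptide median (-0.24) were low. E15 replicate 4 was low for Mt2 (141 units) and Efnb1 (310). Nrgn was high in E15 replicate 6 (316 units), and the globin median was high in E15 replicate 7 (0.31).

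At P1, replicate 4 was high for Hbb-bt (11198 units), Ptgds (3583), Clu (1177) and Calb1 (700). P1 replicate 1 was high for Cck (1308 units), Slco1c1 (243), Foxd1 (135) and the ribosomal median (-0.008396), and low for Slc2a3 (265). P1 replicate 2 was high for Cdkn1c (965 units). P1 replicate 3 was high for the neuropeptide median (0.56) and low for Pdgfra (222 units) and Pdgfrb (131).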

How the results depend on the processing

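Of 163 called genes named by the rule, 108 were called without each replicate in turn, 67 in each other planned setting, 102 with scan day as a random block and 83 in the forebrain-rich replicates. With single replicates left out, rises ran from 1164 to 1765, falls from 2256 to 4330, at least 2-fold rises from 111 to 176 and at least 2-fold falls from 327 to 509. The lowest counts of falls were 2376, 2256 and 2360, without P1 replicate 2, 3 or 4. The count of features whose change differed from the controls was 0 each time.

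Rises were 1085 with loess alone, 872 with the scan day block and 756 in the forebrain-rich replicates, where falls were 1612 with the block and 1146 in those replicates. At least 2-fold rises and falls were 60 and 920 with loess alone, 1366 and 1620 with processed signals, and 429 and 957 with offset 10. At least 2-fold rises were 230 with no probe left out and 84 with the mean of probes. Against E15 replicates 1 to 4 at least 2-fold rises and falls were 235 and 877, and such falls were 259 against E15 replicates 5 to 8 and 264 in the forebrain-rich replicates. Against E15 replicates 1 to 4, 1 feature differed from the controls. The cause was not tested.

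Replicate numbers 1 to 4 occur at both ages but do not pair the animals: the correlations of same-numbered deviations were -0.17, 0.16, 0.11 and 0.05, and 1 of 4 P1 replicates correlated best with its own number. With the replicate block, which uses E15 replicates 1 to 4 only, 1627 features rose and 3322 fell, 243 and 873 at least 2-fold, and 0 differed from the controls.

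Some changes turned sign. With loess alone these were Thoc7 (-0.32), Ndufb8 (-0.079), Atp5o (-0.28), Dcx (-0.20) and Tubb3 (-0.48). With processed signals they were Thoc7 (-0.14), Atp5o (-0.11), Dcx (-0.011), Tubb3 (-0.29), Lin28b (0.10) and Scn3a (0.033). With probes flagged on 1 or more P1 arrays left out they were Gpr17 (-0.23), Camk2b (-0.10), Fzd8 (-0.16) and Dnajb1 (-0.23), and with no probe left out Atp5g1 (0.47), since other probes then represent these genes. Cy5 channels alone turned Grin2b (-0.034) and Gfap (0.037), and Cy3 channels alone Slc18a3 (-0.003002), Tubb3 (-0.026), Mbp (0.13), Lin28b (0.091), Ttr (0.083) and Scn3a (0.14). The replicate block and E15 replicates 1 to 4 turned Neurod1 (-0.017), Slc12a2 (0.011), Aqp4 (-0.009985) and Lin28b (0.00751). The mean of probes turned Slc6a11 (0.14), Nr3c2 (0.014), Gfap (0.073), Mbp (0.46) and Lin28b (0.17). With single replicates left out Scn3a ran from -0.15 to 0.042, turning without E15 replicate 2 (0.001944) or P1 replicate 1, and was above 0 against E15 replicates 5 to 8 (0.13). Lin28b ran from -0.078 to 0.031, turning without P1 replicate 1 or 3 (0.001102), and was 0.011 against E15 replicates 1, 2, 5, 6 and 7. Without P1 replicate 2 Gfap turned (0.011), and Ttr turned there (0.59) and ran from -0.70 to 0.59. Pdgfra (-0.023) and Ttr (0.33) turned against E15 replicates 5 to 8. In the forebrain-rich replicates Neurod1 (-0.060), Gfap (0.036), Aqp4 (-0.072) and Ttr (0.56) turned.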
